A study of Mus musculus with 14 samples.

Results

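The genes described here encode receptors for GABA, glutamate, glycine and extracellular ATP. They were chosen by symbol alone, as the GABA-A (Gabr), GABA-B (Gabbr), AMPA (Gria), kainate (Grik), delta (Grid), NMDA (Grin), metabotropic glutamate (Grm), glycine (Glra, Glrb) and P2X (P2rx) genes, and 58 of the 52459 genes in the count table carried such a symbol. The 2 GABA-B and 8 metabotropic genes encode G protein-coupled receptors, and the others encode channel subunits. The gene for the GABA-A theta subunit, Gabrq, is outside this rule. Expression was measured by RNA sequencing of cells of dispersed pancreatic islets from male C57BL/6J mice aged 7 months, sorted by flow cytometry on their beta-galactosidase activity at acidic pH, a common marker of cellular senescence. The cells with activity (called positive here) gave 7 libraries and those without it (called negative) gave another 7, both from the same strain, sex, age and tissue, numbered 1 to 7 in each group. The sort was on enzyme activity and not on cell type, so each library is a mixture of islet cells. Total counts ran from 11060144 to 24577025 reads per library.

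In neurons these receptors carry fast inhibition (GABA-A and glycine receptors), fast excitation (AMPA, kainate, NMDA and P2X receptors) and slower modulation (GABA-B and metabotropic glutamate receptors). Islets use the same transmitters: beta cells synthesise GABA, alpha cells co-release glutamate with glucagon, and ATP leaves beta cells with insulin. Mouse alpha cells carry AMPA and kainate receptors through which glutamate promotes glucagon release, and P2X7 is best known from macrophages, where it opens to high ATP and drives inflammasome activation.

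Of the 58 receptor genes, 18 had enough reads to be tested, and 1 of these, P2rx7, differed between the groups without regard to the replicate number. It was higher in positive cells by a log2 fold change of 2.51 ± 0.40 (SE, n = 7 each, adjusted p = 0.000627, quasi-likelihood F-test of edgeR, Benjamini-Hochberg adjustment over all genes). That is 5.56% of the receptor genes tested, against 8.03% of all 16350 genes tested, of which 6.4% were called higher and 1.63% lower. The replicate numbers were taken to pair the libraries across groups, although the labels do not say what a number marks. With that number as a block 6 of the 18 were called, P2rx7 higher and Gabbr1, P2rx4, Grik5, Grin2c and Gabrr2 lower in positive cells. This is a share of 33.3% against 19.6% of all genes (11.8% higher and 7.77% lower). In all 7 pairs, 4 receptor genes were lower in the positive library, as 6.94% of all genes were, and 1 was higher, as 11.1% were. No receptor gene was called lower without the block, by edgeR, although 6 had a lower level at an unadjusted p below 0.05. The share of all genes at that p was not counted, here or where such counts are given below. DESeq2 called 1 lower, Grin2c, among 5 calls (9.01% of all genes). With a stricter filter, which removes P2rx7 from the test, none of 14 was called by edgeR, against 7.72% of all genes. Without the 4 libraries numbered 6 and 7, each pair the highest of its own group in summed macrophage markers, 1 of 19 was called, against 3.55%, and 4 with the block as well, against 9.51%. The median log2 fold change of the 18 was −0.20, against 0.00037 over all genes tested, and 14 of them lay below 0, against 49.9% of all genes. The 18 had passed a filter on low counts, and 40 receptor genes had not.

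**Figure D1:**
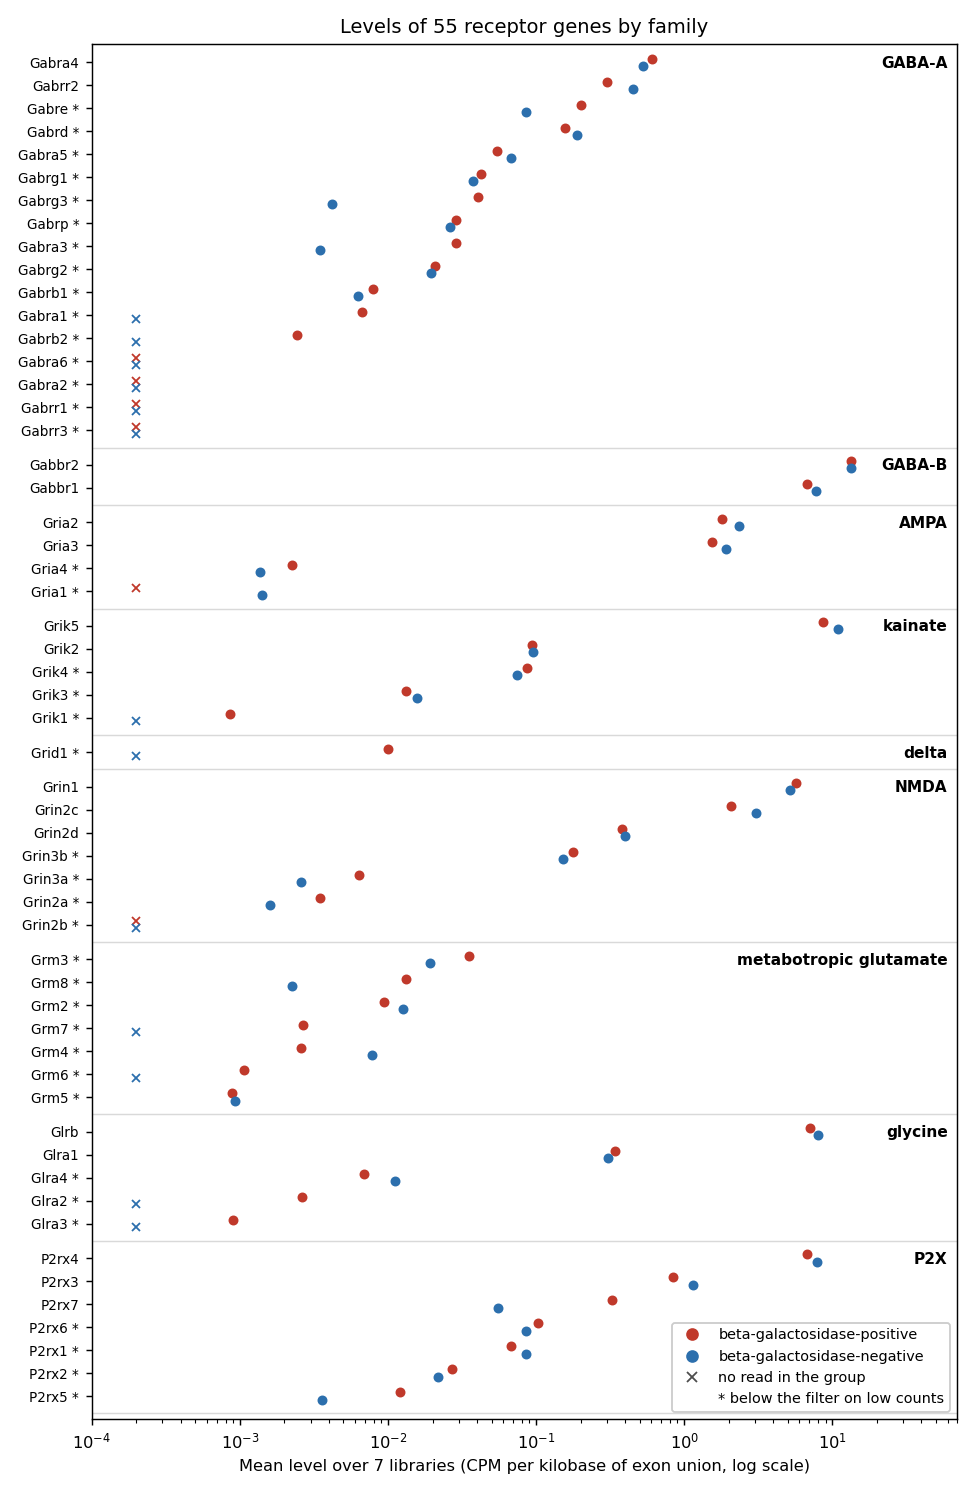
Mean level of 55 receptor genes over 7 positive (red) and 7 negative (blue) libraries, in CPM per kilobase of exon on a log axis, by family and ordered by the positive level. Crosses at the left edge mark genes with no read in a group and asterisks the 39 of them below the filter. Gabbr2 lies farthest right, at 13.3 in positive and 13.5 in negative cells.

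Levels are given as CPM, reads of a gene scaled to the size of its library, and different genes are compared only after division by the length of their exons in kilobases. On that scale the highest receptor gene was Gabbr2, a subunit of the GABA-B receptor that couples to G proteins, at 13.3 ± 1.89 CPM per kilobase in positive and 13.5 ± 2.02 in negative cells (SD, n = 7 each). Its obligate partner Gabbr1, which binds GABA, was at 6.72 ± 0.715 and 7.77 ± 0.631. Grik5, a kainate receptor subunit that needs a partner such as Grik2, was at 8.72 ± 1.71 in positive and 11 ± 1.69 in negative cells. Glrb, the beta subunit that links glycine receptors to their scaffold, stood at 7.06 ± 0.641 and 8.07 ± 0.735, P2rx4, an ATP-gated cation channel, at 6.73 ± 0.876 and 7.91 ± 1.02, and Grin1, the obligate NMDA subunit, at 5.66 ± 0.680 and 5.16 ± 0.40. Glrb, P2rx4 and Gabbr1 lay within 1 SD of each other in both groups, and Grin1 lay below them by more than its SD. The order depends on the length used: scaled by the longest transcript, levels were 1.01 to 2.27 times as high, Gabbr2 was still first, and Grin1 was at 12.8 in positive and 11.7 in negative cells.

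Among the 18 GABA-A genes, the alpha subunit with the highest level per kilobase was Gabra4, which held 5.60 ± 0.860% of the family's summed length-scaled level in positive and 4.82 ± 2.64% in negative cells (SD, n = 7 each). No gamma subunit, which most synaptic GABA-A receptors contain, passed the filter. Gabra5 and Gabrg3 are neighbours on chromosome 7 (GRCm38, 57407672 to 57510059 and 56716465 to 57387188), 20483 bases apart on the same strand. Gabra5 had 22 reads over the positive and 25 over the negative libraries, and Gabrg3 had 65 and 7. Gabra2, Gabra6, Gabrr1 and Gabrr3 had no read in any library. A count of 0 over a group allows a level of up to 0.0222 CPM in positive and 0.0248 CPM in negative cells (3 reads of the group's total, counting error only).

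Gabra4 was at 2.85 to 4.81 CPM (median 3.79) in positive and 1.74 to 7.02 CPM (median 2.68) in negative libraries, higher in the positive library of 6 of 7 pairs, and was not called (log2 fold change 0.21 ± 0.25, adjusted p = 0.695). Its highest value belonged to negative 3, without which the log2 fold change was 0.52 ± 0.17 (adjusted p = 0.0654), while it was 0.08 without negative 6 and 0.04 without the 4 libraries numbered 6 and 7. Gabrr2, a rho subunit best known from retina, was low, at 0.410 to 1.22 CPM (median 0.513) in positive and 0.595 to 1.57 CPM (median 0.943) in negative libraries. In every pair the positive library had less, and it was called only with the block (log2 fold change −0.59 ± 0.19, adjusted p = 0.0484; without the block −0.52 ± 0.28, adjusted p = 0.318). That call rests on 7 to 26 reads per library and was lost without the 4 libraries numbered 6 and 7.

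Both GABA-B genes were abundant, and only Gabbr1 was called, with the block. Gabbr1 was at 45.7 to 59.2 CPM (median 48.7) in positive and 54.5 to 68.9 CPM (median 59.1) in negative libraries. The ranges overlapped, but the positive library was the lower in all 7 pairs. Gabbr1 was called lower with the block (log2 fold change −0.21 ± 0.04, SE, adjusted p = 0.00473). Without the block the log2 fold change was −0.21 ± 0.07. Gabbr1 was then not called (adjusted p = 0.102), unless positive 2 (0.0484) or negative 3 (0.0454) was left out. Gabbr2 was at 68.1 to 107 CPM (median 88.3) in positive and 66.8 to 104 CPM (median 95.1) in negative libraries, with positive higher in 3 of 7 pairs. Its log2 fold change was −0.02 ± 0.11 (adjusted p = 0.945), with a 95% interval of −0.25 to 0.21. The difference between the fold changes of the 2 genes was not tested.

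AMPA receptors, which open to glutamate within milliseconds, were represented by Gria2 and Gria3, while Gria1 and Gria4 together had 2 reads in positive and 2 in negative libraries. Gria2, whose edited subunit makes these channels impermeable to calcium, was at 13.1 to 46.4 CPM (median 25.6) in positive and 27.1 to 52.2 CPM (median 30.6) in negative libraries. Gria3 was at 6.33 to 22.9 CPM (median 13.7) in positive and 13.8 to 26 CPM (median 16.5) in negative libraries. Both were lower in the positive library of 6 of 7 pairs, with log2 fold changes of −0.37 ± 0.23 and −0.32 ± 0.25 (SE, adjusted p = 0.386 and 0.508), and neither was called, with the block either. Pair 7 was the exception for both. Per kilobase they stood close together, Gria2 giving 54.1 ± 3.97% of the AMPA level in positive and 54.7 ± 2.21% in negative cells, although Gria2 varied by 37.7% and 26.5% of its mean over libraries (coefficient of variation). Scaled by its longest transcript, Gria2 was instead the lower, at 2.70 against 2.93 CPM per kilobase for Gria3 in positive cells.

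Gria2 and Gria3 varied together, and with the glucagon gene Gcg, from library to library. Gcg, the marker of alpha cells, ran from 3197 to 26155 CPM in positive and from 9874 to 26898 CPM in negative libraries, and was not called (log2 fold change −0.53 ± 0.42, adjusted p = 0.516). Positive 3, the library with the least Gcg, also had the least Gria2 and Gria3 of all 14, and positive 2 and 7 were the highest positive libraries for all 3 genes. Within pairs, the log2 ratio of positive over negative for Gcg was −2.34, −0.41, −2.97, −0.77, 0.15, 0.09 and 1.22 in pairs 1 to 7. For Gria2 it was −0.84, −0.17, −1.56, −0.32, −0.15, −0.35 and 0.40, so that the pairs with the lowest and the highest Gcg ratio had the lowest and the highest Gria2 ratio. Gria3 gave −0.52, −0.23, −1.77, −0.32, −0.14, −0.27 and 0.54. Of the 8 alpha cell markers tested, 1 was called, Slc7a2, which was lower in positive cells (adjusted p = 0.0407). The part of alpha cell RNA in the levels of the AMPA genes was not tested further. In such bulk samples fewer cells of a type and less RNA per cell cannot be told apart.

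These relations were measured on log2 CPM over 7 libraries or 7 pairs, for all 18 tested receptor genes against Gcg and for Gria3 against Gria2, 57 relations in all, chosen after the values had been seen. The within-pair ratio of Gria3 followed that of Gcg with a Pearson r of 0.90 and a Spearman rho of 0.96 (exact permutation p = 0.000595 and 0.00278, adjusted over the 57 to 0.017 and 0.0792), and r was 0.92 without the 2 pairs farthest from the median Gcg ratio. Gria2 gave an r of 0.95 and a rho of 0.89 (exact permutation p = 0.00179 and 0.0123, adjusted 0.0226 and 0.0876; r 0.86 without the 2 pairs). The kainate subunit gene Grik2, at 0.363 to 2.29 CPM in positive and 0.539 to 2.40 CPM in negative libraries, gave an r of 0.95 and a rho of 0.93 (exact permutation p = 0.00198 and 0.00675, adjusted 0.0226 and 0.0876; r 0.74 without them). Gabbr2 went the other way, with an r of −0.95 and a rho of −0.89 (exact permutation p = 0.00238 and 0.0123, adjusted 0.0226 and 0.0876; r −0.72 without them), as did Grin1, with an r of −0.90 and a rho of −0.82 (exact permutation p = 0.00556 and 0.0341, adjusted 0.0288 and 0.162; r −0.90 without them). The adjusted p of Spearman's rho thus missed 0.05 for all 5 genes.

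Within one group, Gria3 followed Gcg with an r of 0.80 and a rho of 0.79 over positive libraries (exact permutation p = 0.028 and 0.048, adjusted 0.0997 and 0.195) and of 0.96 and 0.86 over negative libraries (exact permutation p = 0.00496 and 0.0238, adjusted 0.0288 and 0.123). Without the 2 libraries farthest in Gcg, r was 0.32 in positive libraries, where the relation thus rests on those 2, and was 0.97 in negative libraries. Gria2 gave an r of 0.84 and a rho of 0.79 in positive libraries (exact permutation p = 0.0187 and 0.048, adjusted 0.0759 and 0.195; r 0.63 without the 2 farthest) and of 0.89 and 0.68 in negative libraries (exact permutation p = 0.0171 and 0.11, adjusted 0.0748 and 0.297; r 0.93). Gria3 followed Gria2 with an r of 0.93 and a rho of 0.86 in positive libraries (exact permutation p = 0.00377 and 0.0238, adjusted 0.0269 and 0.123; r 0.81) and of 0.94 and 0.75 in negative libraries (exact permutation p = 0.00536 and 0.0663, adjusted 0.0288 and 0.21; r 0.81). Grik2 followed Gcg within both groups, with an r of 0.94 and a rho of 0.93 in positive libraries (exact permutation p = 0.00218 and 0.00675, adjusted 0.0226 and 0.0876; r 0.93) and of 0.91 and 0.89 in negative libraries (exact permutation p = 0.00377 and 0.0123, adjusted 0.0269 and 0.0876; r 0.98). Gabbr2 had no such relation past the threshold within a group, with an r of −0.25 and a rho of −0.18 in positive libraries (exact permutation p = 0.601 and 0.713, adjusted 0.797 and 0.886; r −0.80) and of −0.63 and −0.36 in negative libraries (exact permutation p = 0.148 and 0.444, adjusted 0.383 and 0.745; r −0.76). Nor did Grin1 after adjustment, with an r of −0.81 and a rho of −0.86 in positive libraries (exact permutation p = 0.0228 and 0.0238, adjusted 0.0867 and 0.123; r −0.53) and of −0.69 and −0.71 in negative libraries (exact permutation p = 0.0538 and 0.0881, adjusted 0.161 and 0.251; r −0.31). Libraries of one number share more than their group, so the 2 groups do not give independent evidence of these relations.

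**Figure D2:**
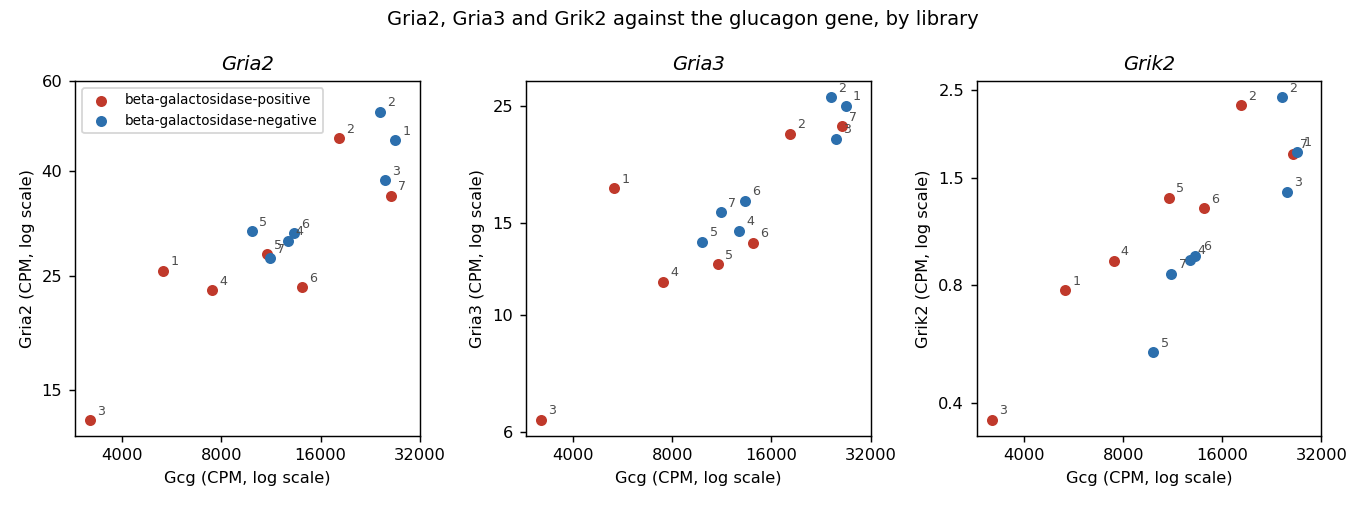
Gria2, Gria3 and Grik2 against Gcg, in CPM on log axes, with 1 point per library, numbered by replicate, in red for positive and blue for negative libraries. Positive 3 is lowest in Gcg and in all 3 genes, and negative 1, 2 and 3 and positive 2 and 7 lie towards the upper right.

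Kainate receptors were represented by Grik5, with 97.8 ± 1.1% of the family's length-scaled level in positive and 98.4 ± 0.542% in negative cells. Grik5 was at 34.9 to 61.5 CPM (median 43.7) in positive and 46.0 to 68.9 CPM (median 55.2) in negative libraries, lower in positive cells in each of the 7 pairs. Both libraries numbered 2 were the highest of their group, and the groups overlapped. With the block Grik5 fell by 0.34 on the log2 scale (SE 0.08, adjusted p = 0.0131), and without it the log2 fold change was −0.33 ± 0.12 (adjusted p = 0.115; 0.0219 without positive 2 and 0.0488 without negative 3). Without the 4 libraries numbered 6 and 7, Grik5 was not called with the block. Grik2 was not called (log2 fold change −0.01 ± 0.37, adjusted p = 0.993). Of the others, Grik4 had 69 reads over the positive and 55 over the negative libraries, Grik3 had 16 and 18, and Grik1 had 1 and 0.

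NMDA receptors need Grin1 together with a GluN2 subunit, and among the genes for these Grin2c had the highest level per kilobase, with Grin2d next, few reads of Grin2a and none of Grin2b. Grin1 was at 43.0 to 62.3 CPM (median 54.8) in positive and 42.4 to 53.1 CPM (median 51.9) in negative libraries, with a log2 fold change of 0.13 ± 0.08 (adjusted p = 0.35). Grin2c was at 6.61 to 13.1 CPM (median 10.8) in positive and 8.76 to 20.3 CPM (median 15) in negative libraries. It was lower in the positive library of every pair but pair 3, where negative 3 had the least Grin2c of the negative libraries, 8.76 CPM. Grin2c fell with the block (log2 fold change −0.56 ± 0.12, adjusted p = 0.009). Without the block its log2 fold change was −0.56 ± 0.18 (adjusted p = 0.0708; 0.00912 without negative 3, 0.0474 without positive 5, and 0.0253 by DESeq2). Without the 4 libraries numbered 6 and 7 it was not called with the block. Per kilobase, the ratio of Grin2c to Grin1 was 0.295 to 0.477 (median 0.355) in positive and 0.398 to 0.737 (median 0.558) in negative libraries, lower in positive cells in each of the 7 pairs. This ratio was chosen after the values were seen and is given without a test. Its size depends on the length used, here that of all exons. Scaled by the longest transcript, Grin2c and Grin1 averaged 2.12 and 12.8 CPM per kilobase in positive cells. In negative cells they averaged 3.14 and 11.7. The ratio is smaller on that scale, and the order within pairs is unchanged. Grin2d was at 2.13 to 2.84 CPM in positive and 1.85 to 3.24 CPM in negative libraries (log2 fold change −0.07 ± 0.14, adjusted p = 0.821). Exons of Grin1 overlap those of an antisense gene, Grin1os, and as the strand setting of the counting is not given in the sources used here, their reads cannot be told apart.

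The genes for metabotropic glutamate receptors and delta subunits had few reads. Grm2 to Grm8 had at most 5 reads in any library, and none of them passed the filter. Grm4, described as an inhibitory glutamate receptor of rat alpha cells, had 2 reads over the positive and 6 over the negative libraries. Grm8 had 18 reads over the positive and 3 over the negative libraries, and was not called without the filter (adjusted p = 0.144, edgeR). The delta subunit gene Grid1 had 8 reads over the positive libraries and 0 over the negative libraries, and was not called there either (adjusted p = 0.134).

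Glycine receptors combine alpha subunits with the beta subunit Glrb, and the alpha subunit genes were low beside it. Glrb was at 27.6 to 35.8 CPM (median 34.2) in positive and 33.3 to 42.9 CPM (median 36.6) in negative libraries, lower in the positive library of 6 of 7 pairs. It missed the threshold without and with the block (log2 fold change −0.19 ± 0.07, adjusted p = 0.13 and 0.0836). Glra1 was at 0.513 to 1.28 CPM in positive and 0.539 to 0.860 CPM in negative libraries (log2 fold change 0.16 ± 0.23, adjusted p = 0.749), and gave 4.52 ± 1.37% and 3.66 ± 0.662% of the family's length-scaled level. Glra2 and Glra3 had 1 read each in positive and none in negative libraries.

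Among the P2X receptors, P2rx4 held 82.9 ± 4.42% of the family's length-scaled level in positive and 84.9 ± 3.09% in negative cells. P2rx7 held 3.99 ± 2.09% and 0.607 ± 0.371%. The genes are neighbours on chromosome 5, on the same strand, P2rx7 at 122643911 to 122691432 and P2rx4 at 122707544 to 122729738 (GRCm38), 16111 bases apart, and with the block they were called in opposite directions. P2rx7 was at 1.76, 1.78, 1.69, 1.02, 0.635, 3.71 and 3.05 CPM in positive 1 to 7, and at 0.341, 0.185, 0.780, 0.265, 0.202, 0.264 and 0.284 CPM in negative 1 to 7. The positive library was the higher in all 7 pairs, and the groups overlapped only because negative 3 exceeded positive 5. These levels rest on 10 to 65 reads per positive and 2 to 13 reads per negative library. No receptor gene tested had groups that did not overlap, against 3.85% of all genes tested. The call of P2rx7 held when any one library was left out (log2 fold change 2.26 to 2.83, adjusted p 0.000238 to 0.0023) and without the 4 libraries numbered 6 and 7 (1.91 ± 0.41, adjusted p = 0.0226). P2rx7 passed the filter on low counts through its positive libraries, the group where it is high. Apart from negative 3, the negative libraries were at 0.185 to 0.341 CPM.

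P2rx4 was at 39.3 to 58.6 CPM (median 47.6) in positive and 45.8 to 68.7 CPM (median 55.4) in negative libraries, lower in positive cells in each of the 7 pairs. It was called lower with the block (log2 fold change −0.23 ± 0.05, adjusted p = 0.0117). Without the block the log2 fold change was −0.23 ± 0.09 and P2rx4 was not called (adjusted p = 0.158), unless positive 2 was left out (0.0394). P2rx3, known from sensory neurons, was at 1.52 to 3.31 CPM (median 2.11) in positive and 2.32 to 3.96 CPM (median 3.24) in negative libraries. It was lower in 6 of 7 pairs and missed the threshold (log2 fold change −0.44 ± 0.17, adjusted p = 0.138; blocked, 0.062; 0.0466 without positive 1). The remaining P2rx genes had at most 13 reads in a library.

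**Figure D3:**
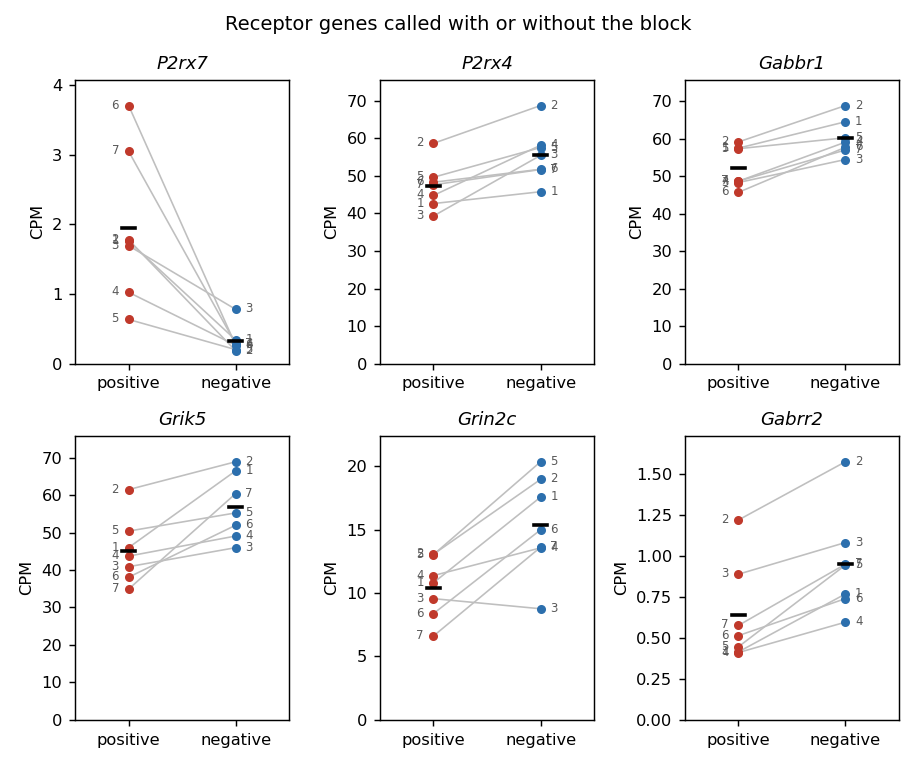
CPM of the 6 receptor genes called with or without the block, with 7 positive libraries left and 7 negative libraries right in each panel, lines joining libraries of the same number, and black bars at group means. P2rx7 was higher in positive cells in every pair, the lines of P2rx4, Gabbr1, Grik5 and Gabrr2 all run the other way, and that of Grin2c does so in all pairs but pair 3.

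**Figure D4:**
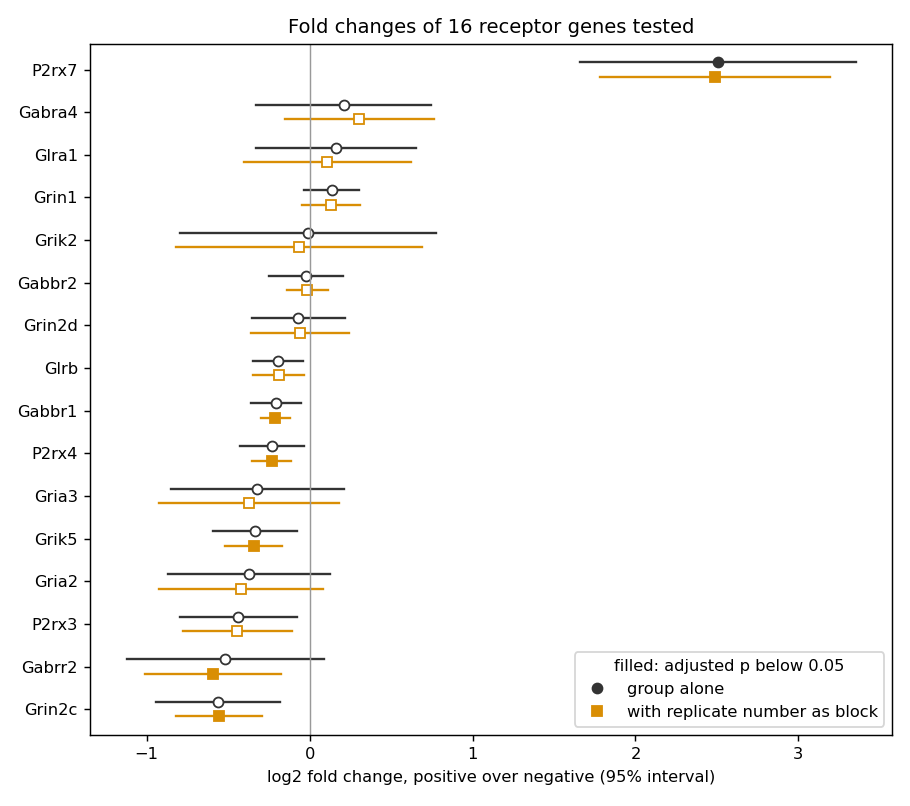
Log2 fold change of positive over negative with its 95% interval for 16 of the 18 receptor genes tested, with group alone (black circles) and with the replicate number as a block (orange squares). Filled symbols mark an adjusted p below 0.05, as for P2rx7 at 2.51 and 2.49 and, with the block alone, for 5 genes between −0.59 and −0.21.

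Markers of several other cell types moved with the groups. None of 6 ductal markers tested was called by edgeR without the block (DESeq2 called 2, both lower), and 1 rose and 1 fell with it. Neither of the 2 pancreatic polypeptide cell markers tested was called. The 2 lymphocyte markers tested went 1 up and 1 down. All 17 macrophage markers tested of 18 rose in positive cells, and 16 of them with the block as well. The summed macrophage marker level was 91.3 to 823 CPM in positive and 18.4 to 26.9 CPM in negative libraries. Adgre1 and Tyrobp were each at 0 in 4 negative libraries, and no macrophage marker was at 0 in all 7. Positive 6 and 7 had the most macrophage marker RNA, 823 and 588 CPM, and the most P2rx7. Positive 5, 4, 1 and 2 followed the same order, at 119, 130, 132 and 134 CPM of these markers. P2rx7 was at 0.635, 1.02, 1.76 and 1.78 CPM in them. Positive 3 and the negative libraries did not follow this order. Positive 3 had the least such RNA of the positive libraries, 91.3 CPM, and P2rx7 at 1.69 CPM. Negative 6 and 7 had the most of the negative libraries, 26.9 and 26.7 CPM, and P2rx7 at 0.264 and 0.284 CPM. Negative 3, at 20.6 CPM, had P2rx7 at 0.780 CPM. All 14 endothelial markers tested of 15 rose too, with summed levels of 408 to 1372 CPM in positive and 4.65 to 72.0 CPM in negative libraries, and Cldn5 at 0 in all negative libraries. Of 10 beta cell markers none was called without the block (edgeR; 4 had an unadjusted p below 0.05 and DESeq2 called 0) and 5 fell with it, their sum being 99236 to 129422 CPM in positive and 103272 to 154186 CPM in negative libraries. Of 3 delta cell markers tested 2 rose, with sums of 308 to 2194 CPM in positive and 81.8 to 435 CPM in negative libraries. Of 11 pericyte and fibroblast markers tested 5 rose, with sums of 53.0 to 253 CPM in positive and 16.2 to 1463 CPM in negative libraries, the highest in negative 3. Of 7 Schwann cell and neuron markers tested 1 rose, Rbfox3, and 4 fell with the block, their sum being 275 to 341 CPM in positive and 311 to 422 CPM in negative libraries. Of 10 acinar markers tested 4 fell, and all 10 with the block, with summed levels of 53.2 to 870 CPM in positive and 184 to 1362 CPM in negative libraries. The part of these cells' RNA in the difference of P2rx7, or in the lower levels of Gabbr1, P2rx4, Grik5, Grin2c and Gabrr2, was not tested.

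Of the 40 receptor genes below the filter, 5 had no read and 19 fewer than 10 reads over all 14 libraries. In a fit without the filter 3 of them were called, all higher in positive cells, beside P2rx7, which made 4 of the 53 receptor genes with a read, against 4.8% of all genes in that fit. The genes named below were called there, and were chosen after their values were seen. Gabrg3, a gamma subunit gene, had 6, 19, 5, 6, 6, 7 and 16 reads in positive 1 to 7 and 4, 0, 1, 1, 0, 1 and 0 in negative 1 to 7, with no overlap in CPM (log2 fold change 2.93 ± 0.57, adjusted p = 0.00208). Gabre, the epsilon subunit gene, had 9 to 32 reads in positive and 3 to 12 in negative libraries (1.19 ± 0.33, adjusted p = 0.0316). Both were higher in positive cells in every pair, and DESeq2 called them too (adjusted p = 0.000566 for Gabrg3 and 0.017 for Gabre).

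Genes that make, move or break down the same transmitters, anchor the receptors or set the chloride gradient were examined in 8 lists, chosen with earlier results of these data known. Of their 84 genes tested, 6 were called higher and 2 lower in positive cells, a share of 9.52% against 8.03% of all genes, and 17 higher and 10 lower with the block, 32.1% against 19.6%. Of 6 cation-chloride cotransporters, which set whether GABA-A and glycine receptors depolarise or hyperpolarise a cell, 1 rose and 1 fell. Slc12a2, which brings chloride into cells, was at 35.6 to 55.1 CPM (median 43.0) in positive and 21.3 to 29.3 CPM (median 23.9) in negative libraries, with no overlap (log2 fold change 0.90 ± 0.10, adjusted p = 6.01e-05). Slc12a5, which exports it and is known mainly from neurons, was at 25.7 to 35.4 CPM (median 31.3) in positive and 31.3 to 45.3 CPM (median 42.4) in negative libraries, lower in all 7 pairs (−0.41 ± 0.09, adjusted p = 0.00678). The call of Slc12a5 was lost without the 4 libraries numbered 6 and 7 (−0.37, adjusted p = 0.113), though not with the block. With the block the same 2 were called. Slc12a7, another chloride exporter, was at 77.8 ± 19.1 CPM in positive and 83.9 ± 15.6 CPM in negative cells (adjusted p = 0.745).

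Of 17 genes tested for ATP release, ATP breakdown and the P2Y and adenosine receptors, 2 rose and none fell by edgeR without the block (1, Panx2, was lower at an unadjusted p below 0.05 and was called by DESeq2). Entpd1, an enzyme that degrades extracellular ATP and is known from endothelial and immune cells, was at 2.86 to 21.1 CPM (median 6.88) in positive and 0.060 to 0.806 CPM (median 0.370) in negative libraries (log2 fold change 4.45 ± 0.55, adjusted p = 0.000136). Panx1, a channel through which cells release ATP and which works with P2X7, was at 5.90 to 9.86 CPM in positive and 2.96 to 6.22 CPM in negative libraries, higher in all 7 pairs (0.72 ± 0.16, adjusted p = 0.00963). Entpd1 and P2rx7 were highest in positive 6 and 7, where macrophage and endothelial markers were highest as well. With the block 3 rose, Entpd2 being the third, and 1 fell, Enpp2. Entpd3 was not called (−0.09 ± 0.08, adjusted p = 0.57). The P2Y receptor gene P2ry1 was at 53.4 ± 15.5 CPM in positive and 55.1 ± 13.2 CPM in negative cells (adjusted p = 0.934).

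Of 8 glutamate genes tested 2 rose, and with the block 5 rose and 1 fell. Slc1a1, a neuronal and epithelial glutamate transporter, was at 1.40 to 4.03 CPM (median 2.74) in positive and 0.120 to 0.948 CPM (median 0.404) in negative libraries, with no overlap (log2 fold change 2.56 ± 0.36, adjusted p = 0.000237). Slc7a11, which exchanges glutamate for cystine, was at 56.9 to 137 CPM (median 78.2) in positive and 20.6 to 56.4 CPM (median 53.1) in negative libraries (1.05 ± 0.28, adjusted p = 0.0308). That call was lost without positive 1, 6 or 7 or negative 1 or 5 (adjusted p 0.0545 to 0.0735), with no filter (1.02, adjusted p = 0.0764) and without the 4 libraries numbered 6 and 7 (0.92, adjusted p = 0.144). The log2 fold change was 0.90 to 1.12 with any one library left out. The others that rose with the block were Slc1a4 (log2 fold change 0.37, adjusted p = 0.00385), Glud1 (0.19, adjusted p = 0.0213) and Slc1a5 (0.71, adjusted p = 0.0478). Glul, glutamine synthetase, was called only with the block (log2 fold change −0.29 ± 0.05, adjusted p = 0.00173; 0.549 without it), lower in all 7 pairs.

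None of 4 GABA genes tested was called, without or with the block. Gad1, which makes GABA, was at 93.6 ± 21.0 CPM in positive and 95.1 ± 12.4 CPM in negative cells (adjusted p = 0.95), and the transporter Slc6a6 had a log2 fold change of 0.01 ± 0.09. Of 8 glycine genes none was called without the block and 4 rose with it, among them Slc6a9, a glycine transporter (log2 fold change 0.48 ± 0.07, adjusted p = 0.000541), and Shmt2 (0.22 ± 0.06, adjusted p = 0.0273). Of 22 auxiliary and scaffold genes none was called without the block, and with it 2 rose and 3 fell, including Dlg4, the postsynaptic scaffold PSD-95 (−0.16 ± 0.04, adjusted p = 0.0258). Gabarapl1 was not called (adjusted p = 0.838). Of 3 nicotinic and other pentameric channel genes tested none was called without the block and 1 rose with it, and Chrnb2 had a log2 fold change of −0.05 ± 0.08. In the 4 lists with no call, edgeR gave 9 genes an unadjusted p below 0.05, and DESeq2 called 3.

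Of 16 genes for G proteins and other partners of the GABA-B and metabotropic receptors, 1 rose and 1 fell, and with the block 1 rose and 4 fell. Gnai1, an inhibitory G protein subunit, was at 11.3 to 18.8 CPM (median 17.6) in positive and 19.9 to 31.6 CPM (median 26.8) in negative libraries, with no overlap (log2 fold change −0.67 ± 0.12, adjusted p = 0.00219). Homer3, a scaffold of group I metabotropic receptors, was at 3.59 to 9.50 CPM (median 5.16) in positive and 2.09 to 5.82 CPM (median 2.56) in negative libraries (1.02 ± 0.26, adjusted p = 0.02). The call of Homer3 was lost without positive 6 (adjusted p = 0.0514) or 7 (0.0521), and without the 4 libraries numbered 6 and 7 (log2 fold change 0.86, adjusted p = 0.259). Its log2 fold change was 0.88 to 1.22 with any one library left out. Gnao1, another inhibitory G protein subunit, fell with the block (−0.20 ± 0.05, adjusted p = 0.0235; 0.113 without it, or 0.0353 without negative 3).

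**Figure D5:**
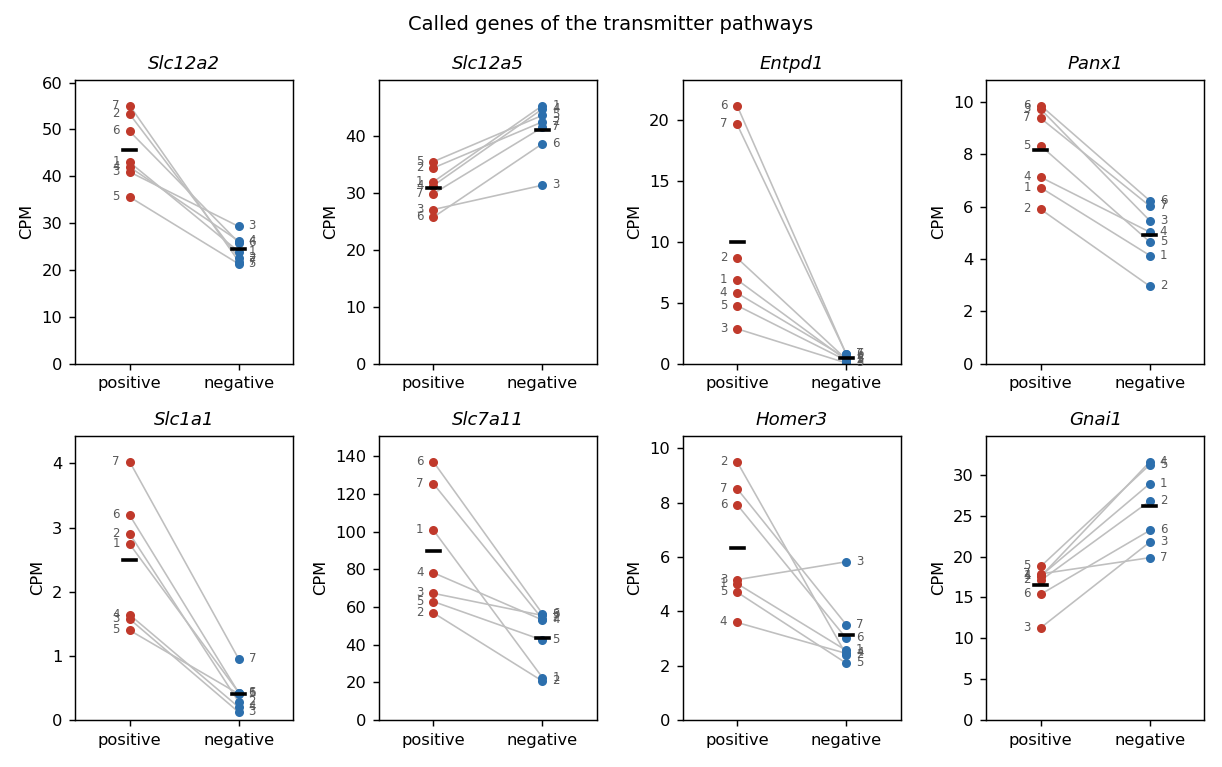
CPM of the 8 called genes of the transmitter lists, drawn as for the receptor genes, positive libraries left and negative libraries right. Slc12a2, Entpd1, Panx1, Slc1a1 and Slc7a11 were higher in positive cells in all 7 pairs, Homer3 in 6 of 7, and Slc12a5 and Gnai1 were lower in all 7.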

How the data were processed

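The deposited table holds whole-number counts of reads per gene, not normalized; GRCm38, Subread and featureCounts are named in the submitters' processing notes, and the strand setting and annotation are not given in the sources used here. Polyadenylated RNA was made into directional libraries, per the labels' protocols. Total counts were 15585779 to 24577025 in positive and 11060144 to 23045934 in negative libraries.

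All genes were fitted with edgeR 4.0.16 in R 4.3.3 (filterByExpr, TMM factors, robust quasi-likelihood F-test, group only, Benjamini-Hochberg threshold 0.05), and 16350 genes passed the filter. CPM use TMM-scaled library sizes, and the limits for a count of 0 use total counts. Alternatives were DESeq2 1.42.0, RLE factors, other filters, a replicate block and libraries left out. The code was tested on simulated data. Exon lengths and coordinates are from GENCODE (GRCm38), where 91.5% of symbols and all 58 receptor genes matched 1 gene.

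Deviations from the group means of same-numbered libraries correlated in all 7 pairs (0.203 to 0.541; median −0.125 for different numbers), so the numbers were taken to pair the libraries; the labels do not say what a number marks. Whether each library is a separate mouse is not labelled either: the p-values reflect variation among these 14 libraries, possibly technical. The members and lists were chosen with earlier results of these data known. Named with full values are the receptor genes called without or with the block and the one of each family with the highest mean CPM, and of each list the called genes (at most 4) and the one with the highest mean CPM. Other genes were named after their values were seen. Single values of 3 receptor genes are not reported here; counts over all members include them.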

Additional observations from a re-analysis of the deposited data

Results flagged for a closer look

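In 4 of 68 groups of 7 libraries checked, 1 library lay far from the others by Dixon's criterion, and chance alone flags about 1 group in 20. Gabra4 was at 7.02 CPM in negative 3 and at 1.74 to 3.50 CPM in the other negative libraries. P2rx7 was at 0.780 CPM in negative 3, against 0.185 to 0.341 CPM in the others, and Homer3 at 5.82 CPM, against 2.09 to 3.51 CPM. Negative 3 also had the highest summed level of pericyte and fibroblast markers, 1463 CPM, and the part of these cells in the 3 values was not tested. Slc1a1 was at 0.948 CPM in negative 7 and at 0.120 to 0.426 CPM in the other negative libraries.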

How the results depend on the processing

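Genes called in all numbered 1313, and 2064 by DESeq2, 3200 with the replicate block, 581 without the 4 libraries numbered 6 and 7, and 965 to 1883 with any one library left out. Receptor genes called numbered 1 of 18 tested, and 4 of 53 with no filter, against 8.03% and 4.8% of all genes. A stricter filter of 1 CPM in 7 libraries gave 0 of 14 by edgeR, against 7.72% (6 had an unadjusted p below 0.05). DESeq2 called 5, against 9.01% of all genes. The replicate block gave 6 of 18, against 19.6%. Without libraries 6 and 7 the block gave 4 (P2rx3, P2rx4, P2rx7 and Gabbr1), against 9.51%. With one library left out 1 to 5 were called, and the share of all genes is not given there. P2rx7 was not tested under the stricter filter, which removes it. Genes called in the transmitter lists numbered 8, and 14 by DESeq2, 27 with the replicate block, 5 without libraries 6 and 7, 13 with the block without them, and 6 to 12 with one library left out. The strict filter and the block without libraries 6 and 7 have fewer genes or libraries by construction; the cause of the other shifts was not tested. Of the single-gene results recomputed under these alternatives, 632 kept their direction and their side of the threshold, 13 lost the call, 22 gained it and 23 changed sign, none of which was called in either fit. With one library left out, log2 fold changes ran from −0.096 to 0.023 for Gabbr2, −0.26 to 0.17 for Grik2, −0.041 to 0.047 for Slc6a6 and −0.11 to 0.00029 for Chrnb2. Without libraries 6 and 7, and with the block as well, they were 0.037 and 0.037 for Gabbr2, 0.018 and 0.035 for Grin2d, and 0.040 and 0.045 for Slc12a7; Gabarapl1 was at 0.0069 with the block without them, and Slc6a6 at −0.0048 with no filter. Depth limits the 40 receptor genes below the filter, none of which had more than 177 reads in all.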
